A study of Mus musculus with 2 samples.

Results

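The genes described here encode the proteins of the cytosolic ribosome. Every gene symbol that begins with Rpl or Rps and a digit was taken, together with Rplp0, Rplp1, Rplp2 and Rpsa, while names with -ps and the S6 kinases were left out. This gave 86 of the 31053 genes in the deposited count matrices. Of these, 33 carry small-subunit names, 52 carry large-subunit names, and Rps19bp1 is a binding partner of Rps19 that the name rule also caught. In GENCODE M21 all 86 are protein coding, and they lie on 19 chromosomes.

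The cells were luminal epithelial cells, sorted from mammary tissue of FVB/NJ mice aged 3.5 months, and profiled with a droplet-based 3′ single-cell kit. The WT library came from mice with the Sox9-GFP reporter, so these controls carry a transgene too. The C3-TAg library came from mice with both Sox9-GFP and C3-TAg, a transgene in which the promoter of the rat prostatic steroid-binding protein gene C3 drives simian virus T antigen. T antigen binds the Rb and p53 tumour suppressor proteins, and its transcript was not measured here. Each genotype is 1 library, how many animals it pools is not stated in the labels. Differences therefore rest on single libraries, and p-values were not computed. All intervals are 95% intervals for counting error only.

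The WT library held 8993 barcodes and 91133082 unique molecular identifiers (UMIs, each marking 1 captured transcript), and the C3-TAg library held 9575 barcodes and 91932121 UMIs. After filters on genes, UMIs, mitochondrial share and doublets, 7046 WT and 7914 C3-TAg cells were kept. The libraries shared 20 barcode sequences, 17 of them among kept cells. Cells with at least 5 UMIs of Areg, Pgr, Esr1 and Cited1 per 10000 were called hormone-sensing. The others were casein-high when Csn1s1, Csn1s2a, Csn2 and Csn3 made up at least 0.5% of their UMIs, and casein-low below that. WT cells fell 38.6% into the hormone-sensing, 53.2% into the casein-high and 8.17% into the casein-low class, and C3-TAg cells 25.6%, 31.5% and 42.9%.

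The classes were checked against markers that did not define them. Of 7 hormone-sensing luminal markers, among them Prlr and Foxa1, the summed level was 4798 CPM (counts scaled to a total of 1000000 UMIs) in WT and 2549 CPM in C3-TAg hormone-sensing cells, against 137 to 670 CPM in the other classes. The 9 secretory luminal markers, among them Elf5 and Lalba, summed to 37056 CPM in WT and 8388 in C3-TAg casein-high cells. In casein-low cells they summed to 7057 CPM in WT and 1964 in C3-TAg. The 9 basal markers had a higher sum in C3-TAg in every class, while in casein-low cells the median log2 ratio of the 8 with at least 20 UMIs was -0.75. They summed to 23.6 CPM in WT and 322 in C3-TAg hormone-sensing cells, to 42.4 and 489 in casein-high cells, and to 319 and 818 in casein-low cells, and 1 of them was at 0 in C3-TAg hormone-sensing cells and none in the other sums. The 18 stromal, endothelial and immune markers summed to 446 CPM in WT and 89.9 in C3-TAg casein-low cells, with 3 and 2 of them at 0. The casein-low class held markers of more than 1 cell type, in different amounts in each library, and is called here by its casein level. The part of these cell types in the results below was not tested.

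Ribosomes translate all messenger RNA, and each is built from a small subunit that reads the message and a large subunit that joins amino acids. Cells make the proteins of both subunits in matched amounts, and growth signals through mTORC1 and Myc raise ribosome production. Many ribosomal protein messages begin with a run of C and T bases at the cap, the terminal oligopyrimidine (TOP) tract, through which mTORC1 controls their translation. In the mammary gland, secretory cells use this machinery to make milk proteins such as the caseins.

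Listed start sites were searched for runs of C and T. The search did not ask for a C at the first base, so a run found here need not be a TOP tract. RefSeq start windows on GRCm38.p6 were at hand for 66 of the 86 members. A run of at least 8 bases made only of C and T reached to within 5 bases of the start in 24 of the 66 (36.4%), against 10.96% of all 27025 genes in the table and 11.5% of 3213 other genes with at least 50 CPM in some class. CTTTC, searched on the transcribed strand, lay in the 30-base window around the start in 18 members (27.3%), against 4.76% of all genes. CTTCCG on either strand, searched over 300 bases, lay in 44 members (66.7%), against 18.8% of all genes and 36.5% of the other genes with at least 50 CPM. These motifs can overlap, and a match describes letters only.

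The windows printed here show members that the results below turn on, each from 15 bases before to 15 after the start, 5′ to 3′. Capitals mark the C and T run at the start where it had at least 5 bases.
Rps21, small subunit, chr2:180257364-180257393, plus strand: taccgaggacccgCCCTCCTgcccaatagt
Rpl7a, large subunit, chr2:26910792-26910821, plus strand: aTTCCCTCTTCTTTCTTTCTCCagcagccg
Rpl38, large subunit, chr11:114668565-114668594, plus strand: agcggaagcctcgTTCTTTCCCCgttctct
Rpl35, large subunit, chr2:39005117-39005146, minus strand: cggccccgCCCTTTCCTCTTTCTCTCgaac
Rpsa, small subunit, chr9:120127751-120127780, plus strand: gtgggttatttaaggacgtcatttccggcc
Rpl13a, large subunit, chr7:45128731-45128760, minus strand: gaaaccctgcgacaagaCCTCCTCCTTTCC
Rpl22l1, large subunit, chr3:28805493-28805522, plus strand: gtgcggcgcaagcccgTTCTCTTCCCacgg
Rpl22, large subunit, chr4:152325711-152325740, plus strand: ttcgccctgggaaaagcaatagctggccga
Rps27, small subunit, chr3:90213634-90213663, minus strand: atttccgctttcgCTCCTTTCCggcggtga
Rpl7l1, large-subunit name, chr17:46782642-46782671, minus strand: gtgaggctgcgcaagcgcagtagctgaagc
Rpl7a had the longest run of these, 21 bases, and Rpl35 had 18. Rpsa, Rpl22 and Rpl7l1 had no run of 5 at the listed start. RefSeq lists 2 starts for Rps21 and for Rpl22, of which 1 is shown.

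Ribosomal protein messages were among the most abundant in every class, and the genotypes differed in opposite directions in casein-high and casein-low cells. In hormone-sensing cells the share of summed UMIs was 21.7% in WT and 21.1% in C3-TAg. In casein-high cells it was 20.6% in WT and 25.03% in C3-TAg. In casein-low cells it was 22.0% in WT and 18.1% in C3-TAg. Across the 6 library and class sums, C3-TAg casein-high was the highest, C3-TAg casein-low the lowest, and the other 4 lay within 20.6% to 22.0%. The widest counting interval, for WT casein-low cells, ran from 21.98% to 22.06%, so counting error is small beside these gaps and the spread between animals is unknown.

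Single cells overlapped between the libraries in every class. The median cell of WT casein-high had 20.9% (quartiles 18.2% and 23.5%), and that of C3-TAg casein-high 25.4% (22.8% and 27.8%). The median cell of WT casein-low had 21.8% (18.7% and 24.7%), and that of C3-TAg casein-low 17.4% (13.7% and 22.6%). C3-TAg casein-low cells were also the most spread, with an SD over cells of 6.06 percentage points against 3.77 to 5.71 in the other classes. Median depth was 11802 and 10190 UMIs per cell in WT and C3-TAg casein-high cells and 7609 and 8340 in casein-low cells. With cells of at least 2000 UMIs thinned to 2000, and those below left out, the log2 ratios of the share were 0.28 and -0.24.

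**Figure D1:**
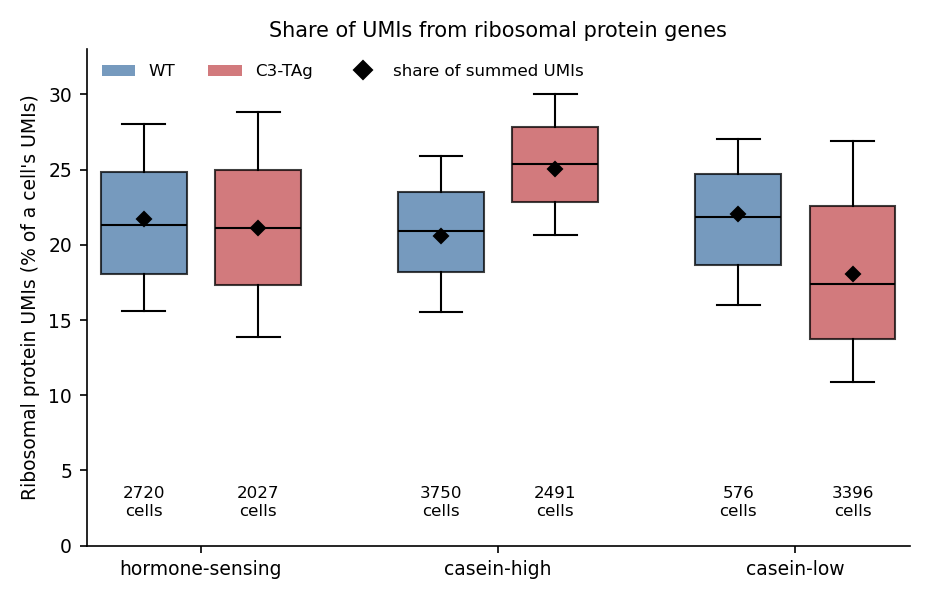
Share of UMIs from ribosomal protein genes per cell, by class, in WT (blue) and C3-TAg (red). Boxes span the quartiles with the median as a line, whiskers the 10th to 90th percentile of cells, and diamonds show the share of summed UMIs. C3-TAg casein-high cells sit highest at 25.03% and C3-TAg casein-low cells lowest at 18.1%.

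On the log2 scale the share in C3-TAg over WT differed by -0.04 in hormone-sensing, 0.28 in casein-high and -0.29 in casein-low cells. Without cells with at least 3 UMIs of the basal markers other than Krt14 and Krt17 the ratios were -0.04, 0.28 and -0.28. This left out 5, 7 and 13 WT and 8, 3 and 53 C3-TAg cells of these classes, so the ratios could change little. A share depends on what else fills the library, and the trimmed mean of M-values (TMM), a scaling by genes of middling change, shifted the 3 comparisons by 0.15, 0.32 and 0.33. With TMM the ratios were -0.19, -0.03 and -0.61, so the casein-high difference changed sign and the casein-low difference was larger. Per cell, the mean number of ribosomal protein UMIs was 2569 in WT and 2873 in C3-TAg casein-high cells, while other UMIs numbered 9928 and 8607. In casein-low cells the ribosomal protein UMIs numbered 1815 and 1711, and other UMIs 6428 and 7767.

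The casein share itself took part of the total, so cells outside the hormone-sensing class were set out by casein level. In WT the ribosomal protein share was 19.7% in cells under 0.02% casein (29 cells) and 20.3% from 0.02% to 0.1% (152 cells). It was 22.8% to 23.1% in the 3 steps from 0.1% to 2%, and 16.2% at 10% casein or more. In C3-TAg it was 16.4% under 0.02% (1696 cells) and 17.3% from 0.02% to 0.1% (1080 cells). It then stood at 23.8% from 0.1% to 0.5%, reached 25.8% from 1% to 2%, and was 20.6% at 10% or more (76 cells). The log2 ratio of C3-TAg over WT was -0.26 and -0.23 in the lowest 2 steps and 0.06 to 0.34 in the 6 above. The steps were not computed under TMM, which shifted the casein-high and casein-low comparisons by 0.32 and 0.33. The signs in the upper 6 steps can thus depend on the scaling.

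C3-TAg casein-low cells and WT casein-low cells lay at different ends of their class. Of the C3-TAg cells 49.9% had under 0.02% casein and 18.3% had 0.1% or more, while of the WT cells 5.03% and 68.6% did. Leaving caseins out of the total moved the ratio at 10% casein or more from 0.34 to 0.32 and left the signs of all 8 steps as they were. Hormone-sensing cells held casein UMIs too, 0.197% of the total in WT and 0.0903% in C3-TAg, beside 0.222% and 0.0676% in casein-low cells. The part of free casein RNA in the lower steps was not tested.

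**Figure D2:**
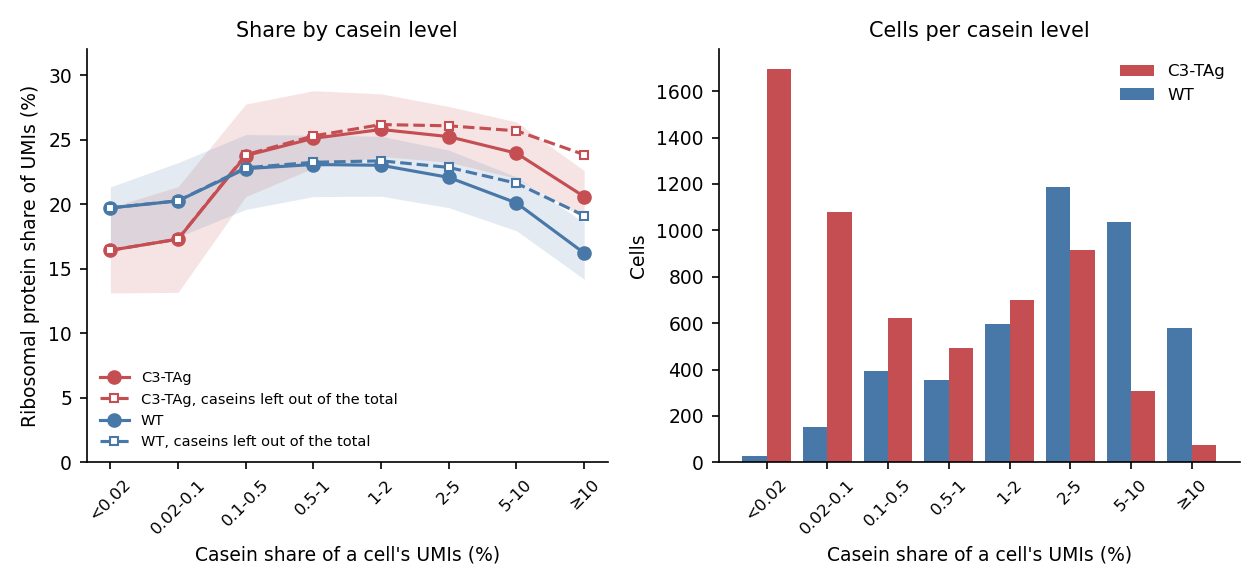
Left, ribosomal protein share of UMIs (percent) over the casein share of a cell's UMIs (percent), for cells outside the hormone-sensing class. Filled points are shares of summed UMIs, open squares leave caseins out of the total, and bands span the quartiles of cells. Right, cells per casein step. The red C3-TAg line lies below the blue WT line in the lowest 2 steps and above it in the other 6. The shares are not scaled by TMM.

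Cells with G2M transcripts were far more frequent in the C3-TAg library. Cells with at least 2 UMIs of 20 G2M genes made up 1.65% to 1.74% of each WT class, and 20.03%, 71.1% and 75.6% of C3-TAg hormone-sensing, casein-high and casein-low cells. Within C3-TAg their ribosomal protein share was lower than that of the other cells of the same class. It was 16.8% against 22.6% in hormone-sensing, 24.7% against 26.0% in casein-high and 17.7% against 19.8% in casein-low cells. Without the cells with G2M UMIs the log2 ratios of C3-TAg over WT were 0.05 in hormone-sensing, 0.34 in casein-high and -0.15 in casein-low cells.

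The hormone-sensing class was mixed in the C3-TAg library. Of WT hormone-sensing cells, 2373 (87.2%) met the rule on Pgr, Esr1 and Cited1 alone, with a ribosomal protein share of 21.7%, and 347 met it only through Areg, the epidermal growth factor receptor ligand amphiregulin, with 22.2%. Of C3-TAg hormone-sensing cells, 1094 (54.0%) met it without Areg, with a share of 23.4%, and 933 (46.0%) only through Areg, with 18.6%. The C3-TAg cells that passed through Areg alone had Krt17 at 421 CPM and Prlr at 996 CPM, against 10.7 and 1967 CPM in those that passed without it. Of these cells 35.6% had G2M UMIs, against 6.76%. Without Areg in the rule the C3-TAg over WT ratio was 0.11, opposite in sign to the -0.04 with it. Cells with at least 3 UMIs of the stromal and immune markers made up 41.2% of WT and 14.5% of C3-TAg hormone-sensing cells, where Dcn gave 703 of 715 summed CPM in WT and 136 of 153 in C3-TAg, and without them the ratio was -0.05.

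Member by member, 82 of the 86 genes reached 50 CPM in some class and 69 reached 1000 CPM in all 6 sums. The other 4 were Rpl10l, with no UMI, Rpl3l, with 2 UMIs, Rpl39l, with 53 UMIs, and Rpl29, which had 20.5 to 29.5 CPM. Rpl10l, Rpl3l and Rpl39l are copies known mainly from testis or striated muscle. For Rpl39l the C3-TAg library had 19 UMIs in hormone-sensing, 17 in casein-high and 12 in casein-low cells, and WT had 5, 0 and 0.

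Of the 82 members, 56 had their highest level in C3-TAg casein-high cells and 54 their lowest in C3-TAg casein-low cells. These counts rest on CPM without TMM, and the matching shares over all genes were not computed. In casein-high cells the median member had a log2 ratio of 0.29, beside 0.23 for all genes with at least 50 CPM, and 78 of 82 were above 0. In casein-low cells the median was -0.28, beside 0.32 for those genes, and 74 of 82 were below 0. In hormone-sensing cells it was -0.05 beside 0.07, with 59 of 82 below 0. Relative to the median of genes with at least 50 CPM, the members lay 0.06 higher in casein-high, 0.60 lower in casein-low and 0.12 lower in hormone-sensing cells. The direction of the casein-high members thus depends on the reference, and under TMM 32 of 82 were above 0 there and 50 below.

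Few members moved far. In casein-high cells 46 of 82 were higher by at least 1.2-fold and none lower, against 46.1% higher and 17.3% lower among all 2966 genes with at least 50 CPM. Under TMM 4 were higher and 6 lower there. In casein-low cells 44 of 82 were lower by at least 1.2-fold and 2 higher, against 20.7% lower and 54.4% higher among 3633 genes. Under TMM 78 were lower, and without cells with G2M UMIs 18 were. No share over all genes was computed under TMM or without those cells, here or below, so such counts lack that reference. In hormone-sensing cells 2 were higher and 1 lower, against 32.5% and 19.7% of 3244 genes. Under TMM 2 were higher and 25 lower there. The 2 higher members reached 50 CPM only in C3-TAg, the library where they were higher. At 1.5-fold, 4 members were higher in casein-high cells (17.4% of all genes) and 7 lower in casein-low cells (12.8%). The SD of log2 ratios over members was 0.13, 0.16 and 0.21 in hormone-sensing, casein-high and casein-low cells, and 0.78, 0.92 and 1.22 over all genes with at least 50 CPM. Of 82 members, 71 were above 0 in casein-high and below 0 in casein-low cells, and 18 passed 1.2-fold in both. For the counts of 71 and 18 neither a share over all genes nor a TMM version was computed.

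**Figure D3:**
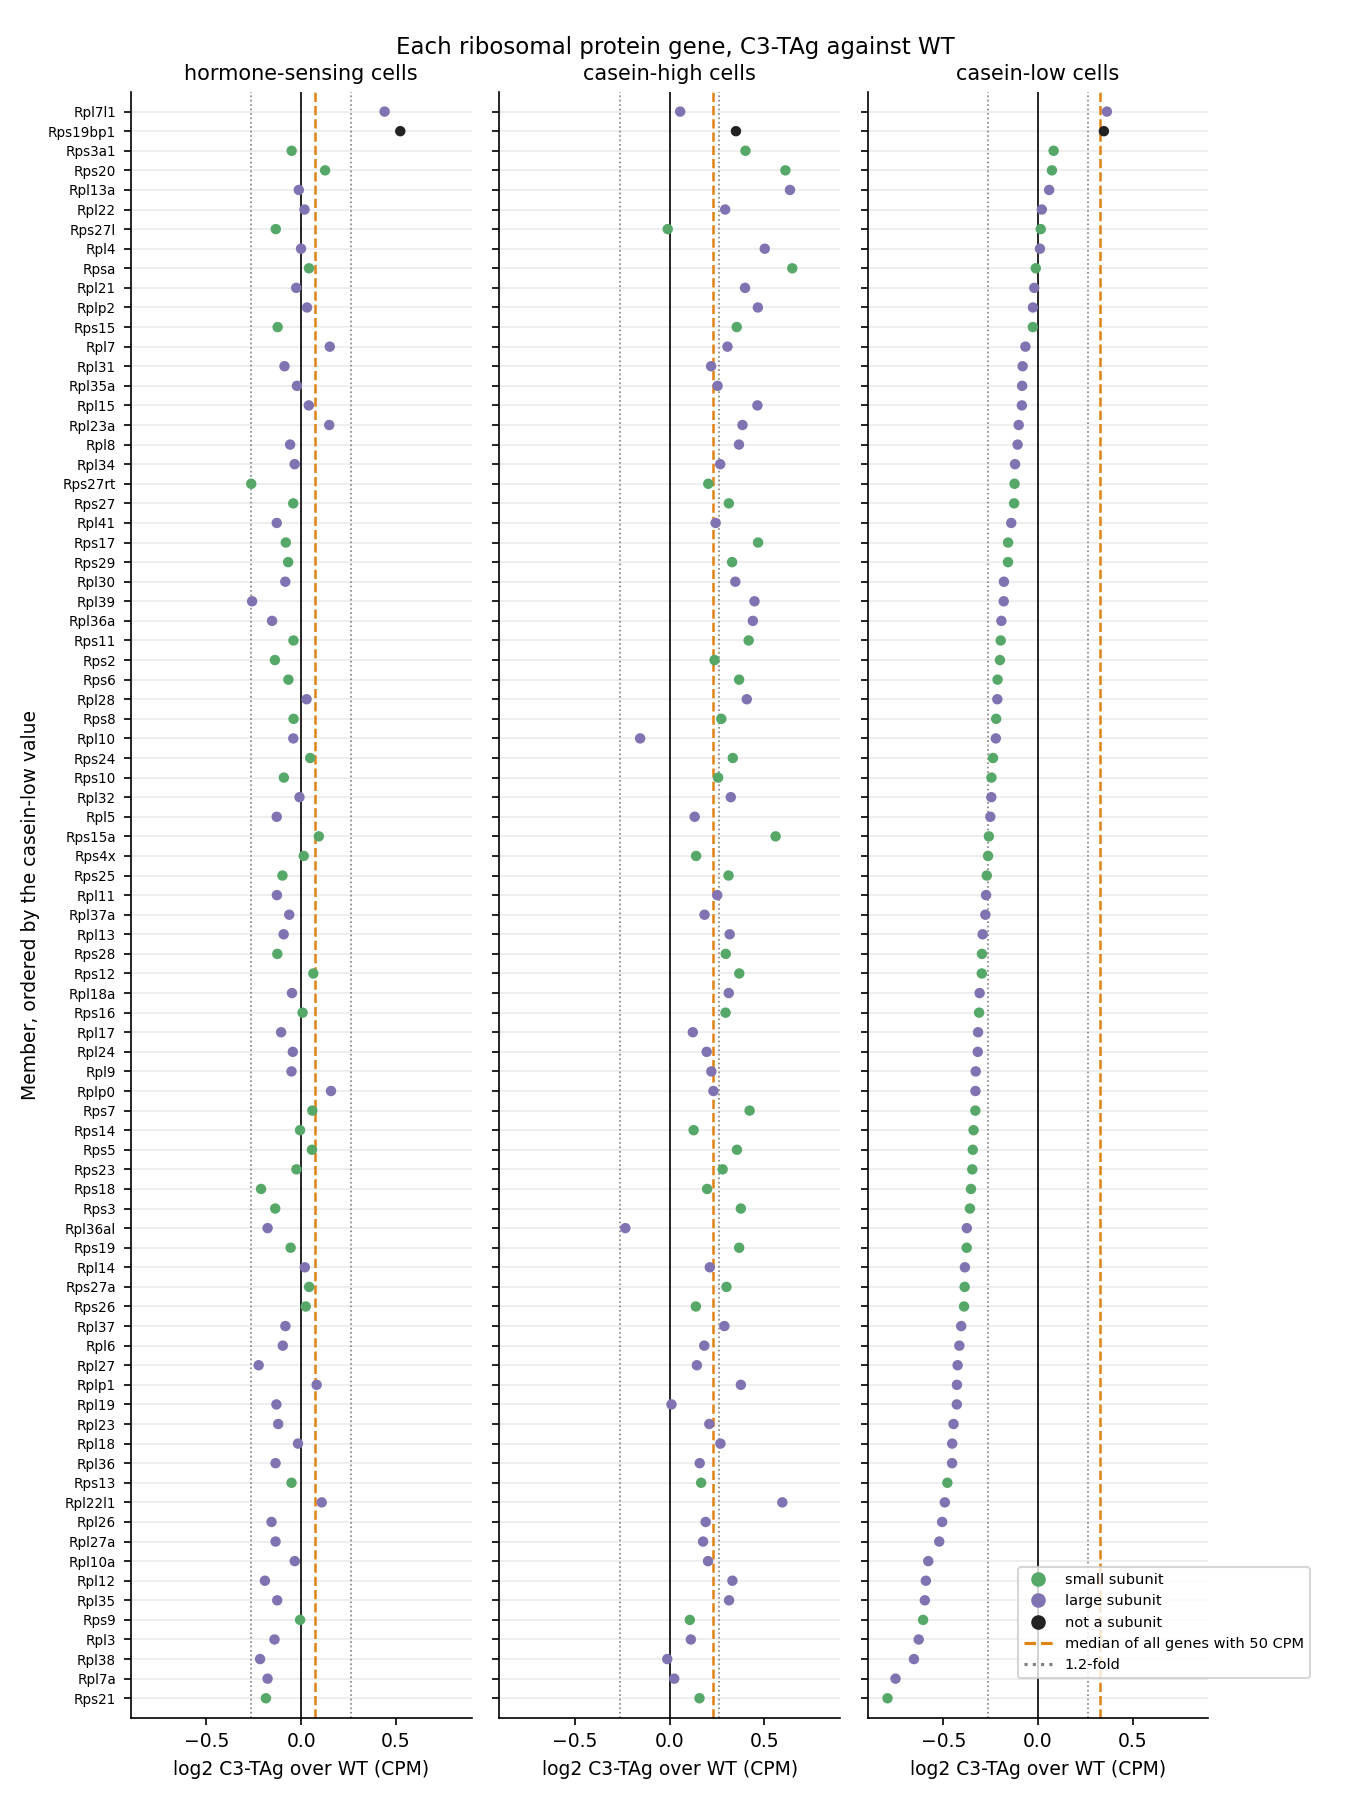
Log2 ratio of C3-TAg over WT (CPM) for each of the 82 members with at least 50 CPM, in the 3 classes, ordered by the casein-low value. Green points are small-subunit, purple large-subunit members and black is Rps19bp1. The dashed line is the median of all genes with at least 50 CPM, and dotted lines mark 1.2-fold. Members lie mostly right of 0 in casein-high cells (78 of 82) and left of it in casein-low cells (74 of 82).

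The subunits were counted apart. Of 33 small-subunit members 22 were higher by 1.2-fold in casein-high cells and 17 lower in casein-low cells, and of 48 large-subunit members 23 and 27. Among all genes with at least 50 CPM 46.1% were higher in casein-high and 20.7% lower in casein-low cells. Under TMM 4 of the 82 members were higher in casein-high cells. Small-subunit UMIs per 100 large-subunit UMIs numbered 73.7 in WT hormone-sensing, 79.9 in casein-high and 80.7 in casein-low cells. In C3-TAg they numbered 75.6, 84.2 and 83.2. In both libraries the hormone-sensing class had the lowest count, and in each class C3-TAg had more small-subunit UMIs per 100 than WT. A UMI counts captured 3′ ends, so this is a ratio of captured messages and not of subunits.

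Among small-subunit members, Rpsa, a protein of the subunit's head also known as the laminin receptor, had the highest casein-high ratio. Its level was 3508 CPM in WT hormone-sensing, 3540 in casein-high and 3782 in casein-low cells. In C3-TAg it was 3610, 5548 and 3752 CPM, so only the C3-TAg casein-high sum stood apart. The log2 ratios were 0.04, 0.65 and -0.01, and the casein-high ratio was 0.33 under TMM. Rps20 was also highest in C3-TAg casein-high cells, with 3467, 3451 and 3628 CPM in WT and 3784, 5273 and 3817 CPM in C3-TAg. Its ratios were 0.13, 0.61 and 0.07.

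Rps21 was at the other end. It encodes a small protein of the small subunit, and stood at 2149, 1890 and 2173 CPM in WT hormone-sensing, casein-high and casein-low cells. In C3-TAg it stood at 1889, 2108 and 1253 CPM. The casein-low ratio of -0.79 (interval -0.83 to -0.76) was the lowest of any member there, beside 0.16 in casein-high cells. Rps9 had -0.61 in casein-low and 0.11 in casein-high cells. Rps3a1 was one of 8 members above 0 in casein-low cells, at 0.08, with 4188 CPM in WT and 4435 in C3-TAg.

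Rps6 is the substrate of the S6 kinases downstream of mTORC1, and Rps19 is the gene most often mutated in Diamond-Blackfan anaemia. Rps6 had 1594, 1791 and 1913 CPM in WT and 1521, 2310 and 1649.5 CPM in C3-TAg. Its ratios of -0.07, 0.37 and -0.21 lay near the member medians. Rps19 had ratios of -0.06, 0.37 and -0.38, and Rps3, a protein at the messenger entry of the small subunit, -0.14, 0.38 and -0.36. These 3 members thus followed the others in all classes.

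Large-subunit members also lay at the low end of casein-low cells, where medians were -0.30 for large-subunit and -0.26 for small-subunit members. Rpl7a, a core protein of the large subunit, had 1705, 1734 and 1762 CPM in WT hormone-sensing, casein-high and casein-low cells. In C3-TAg it had 1507, 1764 and 1046 CPM, so the casein-low sum lay far outside the WT range. Its ratios were -0.18, 0.02 and -0.75. Rpl38, which is known for its part in translating Hox messages, had ratios of -0.22, -0.01 and -0.66. Rpl3, which lies close to the peptidyl transferase centre, had -0.14, 0.11 and -0.63. Rpl35, by the exit of the nascent chain, had 942 CPM in WT and 623 in C3-TAg casein-low cells, a ratio of -0.60, and Rpl12 had -0.59.

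Rpl5 and Rpl11 bind Mdm2 when ribosome assembly is disturbed, and Rpl23 can do so too. Rpl5 had ratios of -0.13, 0.13 and -0.25 in hormone-sensing, casein-high and casein-low cells. Rpl11 had -0.13, 0.25 and -0.27, and Rpl23 -0.12, 0.21 and -0.45. All 3 had the sign of the member median in each class. Mdm2 itself had ratios of 0.30, -0.29 and -0.06.

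Rpl10, a late-joining protein beside the peptidyl transferase centre, was among 4 members below 0 in casein-high cells. It had 2796, 3895 and 3217 CPM in WT and 2717, 3497 and 2757 CPM in C3-TAg. WT casein-high cells were highest, and the casein-high ratio was -0.16. Within both libraries Rpl10 was higher in casein-high than casein-low cells, by 0.28 in WT and 0.34 in C3-TAg. Rpl39, which lines the exit tunnel, had 3167, 2001 and 2257 CPM in WT and 2646, 2730 and 1991 CPM in C3-TAg. Its ratios were -0.26, 0.45 and -0.18. Rpl27 had -0.22 in hormone-sensing cells, with 847 CPM in WT and 725 in C3-TAg.

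The stalk proteins Rplp0, Rplp1 and Rplp2 form the arm of the large subunit that recruits elongation factors. Rplp0 had 4115, 4249 and 4376 CPM in WT and 4590, 4989 and 3481 CPM in C3-TAg. Its ratios were 0.16, 0.23 and -0.33. Rplp1 had 0.08, 0.38 and -0.43, and Rplp2 0.03, 0.47 and -0.03. All 3 were thus above 0 in hormone-sensing cells, where 59 of 82 members were below, but under TMM Rplp1 and Rplp2 were below 0 there. In casein-low cells Rplp2 differed little between libraries, with 1729 CPM in WT and 1697 in C3-TAg. Rpl41 and Rpl34, whose products are small basic proteins, had ratios of 0.24 and 0.27 in casein-high and -0.14 and -0.12 in casein-low cells, all 4 of them below 0 under TMM.

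Rpl13a, known for its release from the ribosome in interferon-treated myeloid cells, came next after Rpsa in casein-high cells, with a ratio of 0.64 (interval 0.59 to 0.68). It was counted at 310, 190 and 197 CPM in WT and 308, 294 and 205 CPM in C3-TAg. The level was high in both hormone-sensing sums and in C3-TAg casein-high cells. In GENCODE M21, 60 members share their name with annotated pseudogenes, 292 in all. The labels do not state how reads matching several loci were counted, so levels of such members are uncertain.

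Paralogs did not keep a fixed balance with their partners. Rpl22l1 encodes a relative of Rpl22 that can stand in for it. Rpl22l1 had 601, 503 and 613 CPM in WT hormone-sensing, casein-high and casein-low cells. In C3-TAg it had 648, 760 and 436 CPM, the highest and the lowest level of the 6 sums. Its ratios were 0.11, 0.60 and -0.49. Rpl22 had 1561, 1356 and 1467 CPM in WT and 1580, 1662 and 1488 CPM in C3-TAg, with ratios of 0.02, 0.29 and 0.02, of which the casein-high one was -0.02 under TMM.

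Per 100 UMIs of Rpl22, those of Rpl22l1 numbered 38.5, 37.1 and 41.8 in WT hormone-sensing, casein-high and casein-low cells. In C3-TAg they numbered 41.0, 45.7 (interval 44.99 to 46.46) and 29.3 (28.7 to 29.9). This balance does not depend on the scaling of either library. In casein-low cells it was lower in C3-TAg, and in casein-high cells higher. The difference between the 2 classes was not tested.

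Rpl36al and Rpl36a encode nearly the same protein from different genes. Rpl36al had 495, 460 and 361 CPM in WT and 438, 391 and 278 CPM in C3-TAg, lower in C3-TAg in all classes. Per 100 UMIs of Rpl36a, those of Rpl36al numbered 39.9, 44.8 and 31.3 in WT and 39.2, 28.1 and 27.6 in C3-TAg. The casein-high balance was thus lower in C3-TAg while the hormone-sensing balance was close. Rpl36al had the lowest casein-high ratio of any member, -0.23, beside 0.44 for Rpl36a.

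Rps27l is a p53 target and a relative of Rps27. It had 461, 421 and 388 CPM in WT and 420, 418 and 392 CPM in C3-TAg, with ratios of -0.13, -0.01 and 0.01. Per 100 UMIs of Rps27, those of Rps27l numbered 26.0, 26.6 and 20.6 in WT and 24.4, 21.2 and 22.7 in C3-TAg. Rps27rt is a near copy of Rps27, so its reads are hard to assign, and its ratio of -0.26 in hormone-sensing cells is uncertain. Rps4x, the X-linked small-subunit gene, had ratios of 0.01, 0.14 and -0.26.

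Rpl7l1, a relative of Rpl7 that acts in large-subunit assembly, went against the other members. It was low, with 42.3, 60.0 and 68.4 CPM in WT and 57.4, 62.4 and 88.1 CPM in C3-TAg. Its ratios were 0.44, 0.06 and 0.36, and it was highest in the casein-low class of both libraries. Rpl7 had ratios of 0.15, 0.31 and -0.07. Rps19bp1, which is not a subunit, had 36.7, 55.4 and 63.8 CPM in WT and 52.8, 70.6 and 81.2 CPM in C3-TAg. Its ratios were 0.52, 0.35 and 0.35. Rpl7l1 and Rps19bp1 were the 2 members higher by 1.2-fold in casein-low cells and the 2 in hormone-sensing cells. In hormone-sensing cells both reached 50 CPM only in C3-TAg, so the limit let them in through the library where they were higher. Thinned to 2000 UMIs per cell, Rps19bp1 had -0.01 in casein-low cells.

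**Figure D4:**
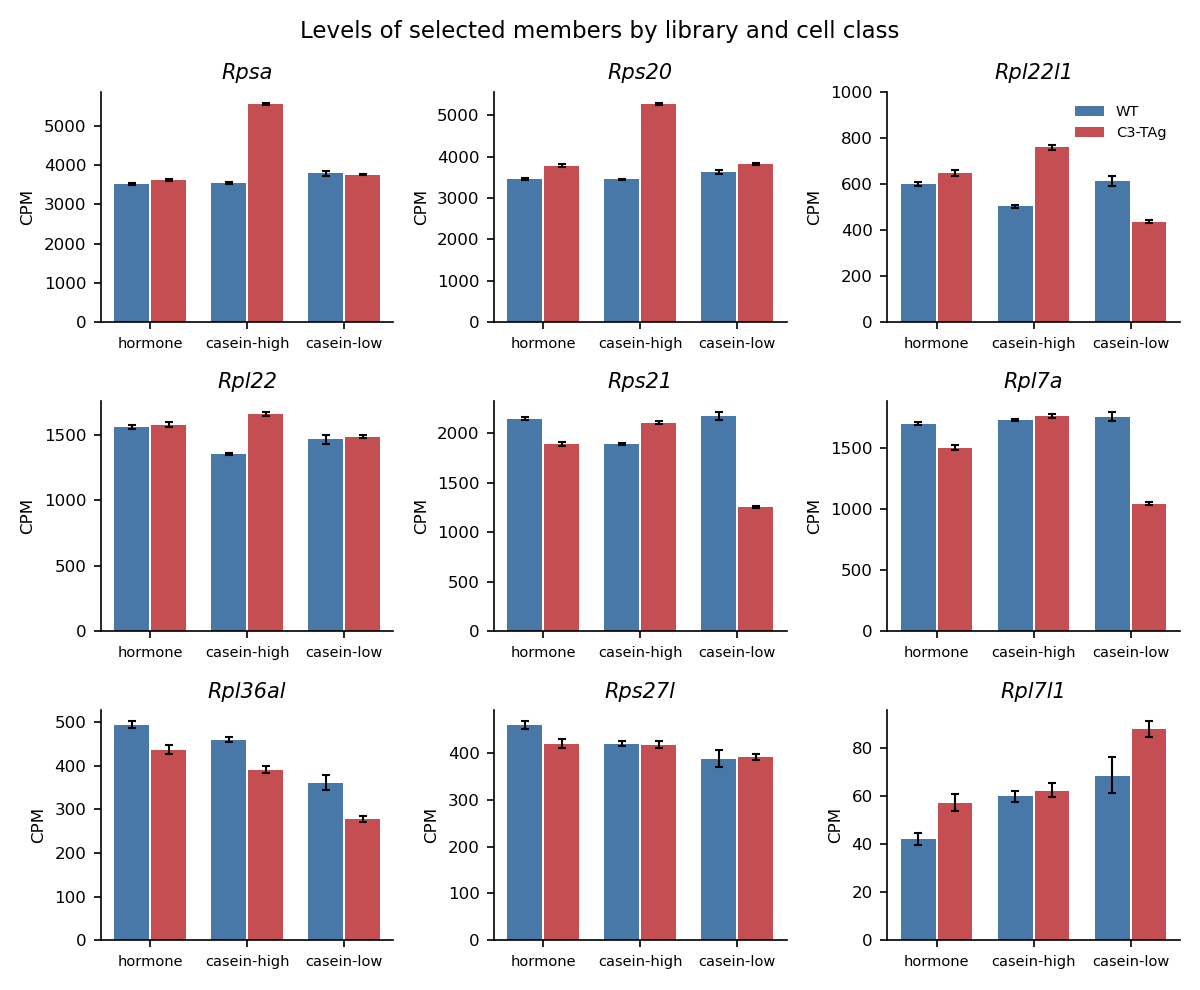
Levels (CPM) of 9 members in hormone-sensing, casein-high and casein-low cells of WT (blue) and C3-TAg (red). Bars are the 1 library per group and error bars are 95% Poisson intervals for counting error. Rpsa, Rps20 and Rpl22l1 peak in C3-TAg casein-high cells, Rps21 and Rpl7a are lowest in C3-TAg casein-low cells, and Rpl7l1 is highest there at 88.1 CPM.

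Within each library the classes were also compared. In C3-TAg the ribosomal protein share of casein-high over casein-low cells had a log2 ratio of 0.47, and 73 of 82 members were higher by at least 1.2-fold, against 15.3% of 3496 genes with at least 50 CPM, while 1 was lower, against 52.9%. The median member had 0.46, beside -0.29 for those genes, and 80 of 82 were above 0. Rpl35 (0.83), Rpl10a (0.81), Rpl22l1 (0.80) and Rpl7a (0.75) had the highest ratios. Rpl7l1 (-0.50) and Rps19bp1 (-0.20) were the 2 below 0, and TMM left 81 of 82 above 0.

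In WT the same comparison gave -0.10 for the share and 9 of 82 members above 0, with 2 higher and 1 lower by 1.2-fold, against 13.6% and 40.1% of 2905 genes. The median member had -0.11 beside -0.18 for those genes. TMM turned the share ratio to 0.15 and put 79 of 82 members above 0, so the WT direction depends on the scaling. The 2 higher members were Rpl36al at 0.35 and Rpl10 at 0.28, and the 1 lower was Rpl22l1 at -0.29. These comparisons share the casein-high and casein-low sums with those between genotypes.

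Hormone-sensing cells of WT differed from casein-low cells less in the total than in single members. In C3-TAg the total differed too, with 64 of 82 members above 0. In WT the share ratio was -0.02, with 11 of 82 members higher and 11 lower by 1.2-fold, against 40% and 34.4% of 3367 genes, and under TMM 5 were higher and 15 lower. Rpl13a (0.66), Rpl39 (0.49), Rpl36al (0.45) and Rpl27 (0.44) were highest, and Rps19bp1 (-0.80) and Rpl7l1 (-0.69) lowest. Rps19bp1 and Rpl7l1 reached 50 CPM only in casein-low cells here, the class where they were higher. In C3-TAg the share ratio was 0.23, with 32 of 82 higher and 2 lower, against 22.3% and 46.4% of 3718 genes. Under TMM the share ratio was 0.41 and 62 of 82 were higher and 2 lower, and without Areg in the hormone-sensing rule the share ratio was 0.37. Rplp1 (0.85) was highest there. Rpl27 and Rpl36al were among the 4 highest members in both libraries, at 0.64 and 0.65 in C3-TAg.

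A C and T run at the listed start did not set members apart in these ratios. In casein-low cells the 24 members with a run of at least 8 had a median log2 ratio of -0.25 for C3-TAg over WT, and the 39 others with a window and at least 50 CPM had -0.30. In casein-high cells the medians were 0.27 and 0.24. The ranges overlapped in both classes, from -0.75 to 0.06 and from -0.79 to 0.36 in casein-low cells. Rpl7a and Rpl35, with the long runs printed above, and Rps21, with a run of 7, were all among the lowest casein-low members.

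Other genes of translation were set beside the members. Fau, which encodes a small-subunit protein fused to a relative of ubiquitin, had log2 ratios of -0.09, 0.06 and -0.22 in hormone-sensing, casein-high and casein-low cells. Rack1, a scaffold of the small subunit, had -0.01, 0.25 and -0.41. Both were below 0 in casein-high cells under TMM. Rack1 had 2392, 2504 and 2539 CPM in WT and 2371, 2988 and 1916 CPM in C3-TAg. Elongation factors and other TOP messages, 14 genes, had medians of 0.02, 0.24 and -0.10. Of these, 7 were higher and none lower by 1.2-fold in casein-high cells, and 4 were higher and 4 lower in casein-low cells. All 14 reached 50 CPM, and among all such genes 46.1% and 17.3% were higher and lower in casein-high, and 54.4% and 20.7% in casein-low cells. Eef1a1, which delivers aminoacyl-tRNA, had ratios of -0.10, 0.11 and -0.43, Eef2, the translocase, -0.16, -0.004 and -0.51, and Tpt1 0.10, 0.01 and -0.21. Among the 14, Eef2 was the lowest in casein-low cells, and Hnrnpa1 was the highest there, at 1.38. Nap1l1 was the highest in casein-high cells, at 1.43.

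Ribosome assembly genes did not share the members' low values in casein-low cells. Of 40 ribosome biogenesis genes, 30 were higher by 1.2-fold in hormone-sensing, 33 in casein-high and 30 in casein-low cells, and 1, none and 1 were lower. Among all genes with at least 20 UMIs, the base that fits this list, 41.3%, 54.8% and 55% were higher and 20.6%, 17.2% and 22% lower. The list medians were 0.51, 0.56 and 0.47, beside 0.14, 0.32 and 0.35 over those genes. Nolc1, a nucleolar chaperone, had ratios of 1.07, 0.97 and 0.70. Dkc1, the pseudouridine synthase of ribosomal RNA, had 16.2 CPM in WT and 54.7 in C3-TAg casein-low cells, a ratio of 1.75. It thus reached 50 CPM there only in C3-TAg, the library where it was higher. Nop10, a partner of Dkc1, had -0.42, 0.23 and -0.41.

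Of 77 measured mitochondrial ribosomal protein genes, which serve a separate ribosome, 19, 62 and 58 were higher by 1.2-fold in hormone-sensing, casein-high and casein-low cells, and 5, none and 4 were lower. Of all genes with at least 20 UMIs, 41.3%, 54.8% and 55% were higher and 20.6%, 17.2% and 22% lower, so in hormone-sensing cells this list held fewer higher genes than that share. Their medians were 0.04, 0.47 and 0.56, so in casein-low cells they lay on the other side of 0 from the cytosolic members. Mrpl18 had 36.9, 36.7 and 32.9 CPM in WT and 62.0, 114 and 127 CPM in C3-TAg. The 26 initiation factors had medians of 0.14, 0.19 and 0.07. Eif3f, a subunit of the scaffold that binds the small subunit, had -0.54 in casein-low cells, and Eif2s1, the subunit phosphorylated under stress, had 0.65.

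Messages of upstream regulators were also counted. Of 18 measured regulators of mTORC1 and ribosomal protein genes, 12 were higher by 1.2-fold in hormone-sensing and 9 in casein-high cells, and of 19 measured in casein-low cells 6 were. Among all genes with at least 20 UMIs 41.3%, 54.8% and 55% were higher, so the list stood above that share in hormone-sensing cells, near it in casein-high and below it in casein-low cells. Myc, which drives ribosome production, had 54.8, 76.6 and 114 CPM in WT and 133, 143 and 202 CPM in C3-TAg, with ratios of 1.28, 0.90 and 0.82. Eif4ebp1, a repressor of cap-dependent translation that mTORC1 inactivates, had 30.2, 60.3 and 45.5 CPM in WT and 112, 145 and 175 CPM in C3-TAg. Its ratios of 1.89, 1.26 and 1.95 were the highest of that list among genes with at least 50 CPM. In hormone-sensing and casein-low cells Eif4ebp1 reached 50 CPM only in C3-TAg, the library where it was higher. Myc and Eif4ebp1 were both higher in C3-TAg in all 3 classes, under TMM too. Transcript levels do not show mTORC1 activity, which was not measured.

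**Figure D5:**
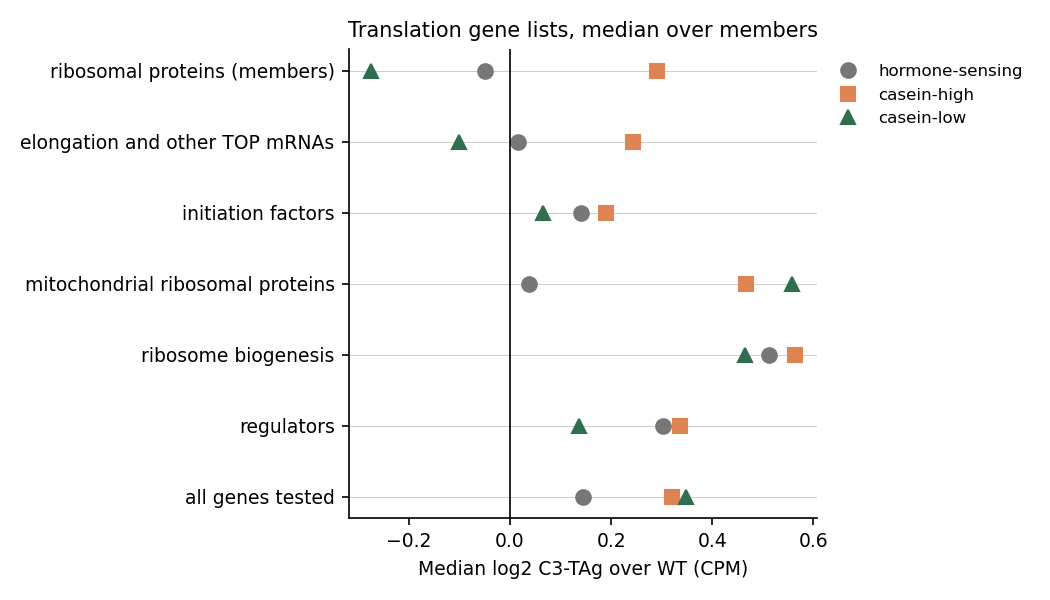
Median log2 ratio of C3-TAg over WT (CPM) for each gene list in hormone-sensing (grey circles), casein-high (orange squares) and casein-low cells (green triangles). The ribosomal protein members run from -0.28 in casein-low to 0.29 in casein-high cells, while ribosome biogenesis genes lie at 0.47 to 0.56 in all 3 classes.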

How the data were processed

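Luminal cells of 2 groups, with 1 library each, were profiled with a Chromium 3′ kit. The deposited values are whole-number UMI counts, not normalized. The submitters' processing notes name Cell Ranger 3.1.0 and the build mm10. The call of barcodes as cells is not described there.

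From the deposited counts, barcodes with at least 500 genes, 1000 UMIs and at most 10% mitochondrial UMIs were kept (7406 WT, 8458 C3-TAg), and Scrublet doublets were removed (360, 4.86%, and 544, 6.43%). Kept cells had medians of 10296 and 8684 UMIs. Counts were summed per library and class and divided by the total (CPM). Levels carry exact Poisson, ratios exact conditional Poisson and shares Clopper-Pearson intervals at 95%. A sum of 0 was set to a floor of 3 counts. Genes with at least 20 UMIs over both sums were compared, members and all genes alike. Members were summarised at 50 CPM or more in either sum, and called higher or lower from 1.2-fold and 1.5-fold, with no test. Other lists count every measured gene.

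The text names the stalk proteins, Rpsa, paralogs with their partners, the 4 highest and 4 lowest members of each comparison, members with known roles outside the ribosome, and from each other list its ends. It describes a part of these. Rpl35, Rpl12, Rps9 and Prlr were chosen after their values were seen. Members and lists were chosen with earlier results of these data known. The ratio step was tested on simulated data.

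TMM factors came from edgeR 4.0.16 in R 4.3.3, and all else from scanpy 1.11.5, pandas 2.3.3, scipy 1.17.1 and numpy 2.4.6 under Python 3.11.15. Alternatives changed the filters, class limits, totals, scaling, depth and cells. Those on Areg and on basal markers were chosen after seeing the data. Start windows are RefSeq's.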

Additional observations from a re-analysis of the deposited data

Results flagged for a closer look

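The ribosomal protein share and the level of Rpl22l1 moved in opposite directions in 2 classes under the same contrast of C3-TAg over WT. The log2 ratio of the share was 0.28 in casein-high and -0.29 in casein-low cells. That of Rpl22l1 was 0.60 and -0.49. With 1 library per group neither difference between the classes was tested. Under TMM the casein-high share was -0.03, while Rpl22l1 was 0.28 there.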

How the results depend on the processing

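No paired analysis was possible because each group has 1 library, and for the same reason no replicate could be left out. The values below are the log2 ratio of the ribosomal protein share, C3-TAg over WT unless 2 classes of 1 library are named. The casein-low ratio was below 0 in all 19 alternatives run, from -0.61 to -0.15, and the casein-high ratio above 0 in all but TMM. None of the 19 compared the libraries at a matched casein level. From 0.1% to 0.5% casein, with 68.6% of WT and 18.3% of C3-TAg casein-low cells, the ratio was 0.06. The hormone-sensing ratio changed sign under 4 alternatives. These 4 include both alternatives on Areg, which leave the same hormone-sensing cells and so give the same ratio of 0.11. Some of the 19 could not change a given ratio. The limits on low counts did not enter the share in any class. Leaving out cells that passed through Areg alone touched only hormone-sensing cells, and the casein limits only casein-high and casein-low cells. With all deposited barcodes the log2 ratio was -0.018 in hormone-sensing cells, 0.28 in casein-high cells and -0.22 in casein-low cells. With at most 5% mitochondrial UMIs the log2 ratio was -0.28 in hormone-sensing cells, 0.27 in casein-high cells and -0.30 in casein-low cells. With called doublets kept the log2 ratio was -0.024 in hormone-sensing cells, 0.26 in casein-high cells and -0.28 in casein-low cells. The class ratios were -0.031 for WT hormone-sensing over casein-low and 0.44 for C3-TAg casein-high over casein-low. With the hormone-sensing limit at 10 UMIs per 10000 the log2 ratio was 0.034 in hormone-sensing cells and -0.27 in casein-low cells. With casein-high from 1% the log2 ratio was 0.30 in casein-high cells and -0.24 in casein-low cells. Within libraries it was -0.14 for WT casein-high over casein-low, -0.048 for WT hormone-sensing over casein-low, 0.39 for C3-TAg casein-high over casein-low and 0.15 for C3-TAg hormone-sensing over casein-low. With casein-high from 0.1% the log2 ratio was 0.26 in casein-high cells and -0.27 in casein-low cells. Without caseins and mitochondrial genes in the total the log2 ratio was 0.23 in casein-high cells and -0.30 in casein-low cells. Between classes it was -0.00039 for WT casein-high over casein-low, -0.0041 for WT hormone-sensing over casein-low, 0.52 for C3-TAg casein-high over casein-low and 0.25 for C3-TAg hormone-sensing over casein-low. Without other genes over 1% of UMIs in the total the log2 ratio was -0.059 in hormone-sensing cells, 0.18 in casein-high cells and -0.30 in casein-low cells. Under TMM the log2 ratio was -0.19 in hormone-sensing cells, -0.033 in casein-high cells and -0.61 in casein-low cells. The class ratios were 0.15 for WT casein-high over casein-low, -0.12 for WT hormone-sensing over casein-low, 0.77 for C3-TAg casein-high over casein-low and 0.41 for C3-TAg hormone-sensing over casein-low. As means over cells the log2 ratio was -0.029 in hormone-sensing cells, 0.28 in casein-high cells and -0.24 in casein-low cells. Thinned to 2000 UMIs the log2 ratio was -0.028 in hormone-sensing cells, 0.28 in casein-high cells and -0.24 in casein-low cells. Within libraries it was -0.054 for WT casein-high over casein-low, -0.00094 for WT hormone-sensing over casein-low, 0.47 for C3-TAg casein-high over casein-low and 0.21 for C3-TAg hormone-sensing over casein-low. In cells with 5000 to 15000 UMIs the log2 ratio was -0.021 in hormone-sensing cells, 0.27 in casein-high cells and -0.30 in casein-low cells. Without cells with stromal or immune markers the log2 ratio was -0.051 in hormone-sensing cells and -0.29 in casein-low cells. Without cells with G2M UMIs the log2 ratio was 0.055 in hormone-sensing cells, 0.34 in casein-high cells and -0.15 in casein-low cells. Between classes it was -0.10 for WT casein-high over casein-low, 0.39 for C3-TAg casein-high over casein-low and 0.19 for C3-TAg hormone-sensing over casein-low. Without Areg in the hormone-sensing rule the log2 ratio was 0.11 in hormone-sensing cells and -0.30 in casein-low cells. The class ratios were -0.12 for WT casein-high over casein-low, -0.040 for WT hormone-sensing over casein-low, 0.47 for C3-TAg casein-high over casein-low and 0.37 for C3-TAg hormone-sensing over casein-low. Leaving out cells that passed through Areg alone the log2 ratio was 0.11 in hormone-sensing cells. Within libraries it was -0.024 for WT hormone-sensing over casein-low and 0.38 for C3-TAg hormone-sensing over casein-low. Without cells with basal markers the log2 ratio was -0.28 in casein-low cells. Between classes it was 0.47 for C3-TAg casein-high over casein-low and 0.22 for C3-TAg hormone-sensing over casein-low. The count of members higher by 1.2-fold in casein-high cells, 46, was 19 without other genes over 1% of UMIs and 4 under TMM. The count lower in casein-low cells, 44, was 78 under TMM and 18 without cells with G2M UMIs. The share over all genes was not computed under these alternatives. In hormone-sensing cells 1 member rather than 2 was higher with the limit at 10 UMIs. Of the called members named by rule, the ratios under TMM of Rpl22 at -0.023, Rpl34 at -0.049, Rpl7 at -0.011 and Rps27 at -0.0038 changed sign in casein-high cells, and that of Rps19bp1, at -0.00996, did so in casein-low cells thinned to 2000 UMIs. The cause was not tested. Of the other values under an alternative, of single members and of further member counts, 1134 were scored as unchanged and 681 as moved. Single members were scored by their counting interval and member counts by a fold limit. These kinds were not totalled apart. Depth leaves Rpl10l, Rpl3l and Rpl39l without a usable ratio in most classes.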

Other observations

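Barcodes that the filters removed had a median ribosomal protein share of 7.99% in WT (1587 barcodes) and 6.93% in C3-TAg (1117 barcodes). Cells called doublets had medians of 20.8% and 21.2%. The contrast of casein-high against casein-low cells, as the log2 ratio in casein-high minus that in casein-low cells, had a median of 0.57 over the 82 members and ran from -0.31 for Rpl7l1 to 1.09. Rps27l (-0.02) and Rps19bp1 (0.003) were nearest 0.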
